A study of Mus musculus with 18 samples.

Results

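The Dlk1-Dio3 region is a cluster of imprinted genes on mouse chromosome 12, in which some genes are read from the copy inherited from the father and others from the copy inherited from the mother. The transcripts described here were chosen by symbol. Of 45 listed genes of the region, those with an array probe set annotated with that symbol alone were taken, which left 39 of the 19938 genes measured. They are the paternally expressed protein genes Dlk1, Rtl1 and Dio3, the maternally expressed long non-coding RNAs Meg3 and Rian, and 34 of 39 listed microRNA genes. No probe set of their own was found for Mirg, Mir410, Mir433, Mir496, Mir654 and Mir758. Signal enters this choice only where a gene has several probe sets, of which the brightest over the 18 arrays would be kept, and no member had more than 1. The region itself was singled out with earlier results of these data in view, so the tests below describe how its genes differed and are not independent evidence for having chosen it.

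In this cluster the mother's chromosome makes a long run of non-coding RNA that starts at Meg3 and continues through Rian and Mirg. Small nucleolar RNAs and a large number of microRNAs are cut from it. The father's chromosome makes the messenger RNAs of Dlk1, Rtl1 and Dio3 instead, because a control element between Dlk1 and Meg3 is methylated there. In mouse pluripotent cells the maternal RNAs can differ between lines, and their silencing in some induced pluripotent lines has been tied to poor development of mice made from them. Which parent's copy was read cannot be seen on these arrays.

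Total RNA was hybridised to Affymetrix Gene 1.0 ST arrays for mouse, in 6 groups of 3 arrays that the labels call biological replicates. Undifferentiated cells came from the 129SV and the Stra8-EGFP/Rosa26 genetic background (Stra8 below), each as embryonic stem (ES) cells and as adult stem cells, which the series title places in the germline. Differentiated ES and differentiated adult cells were of the 129SV background only, so no differentiation value exists for Stra8. The labels name no treatment, no differentiation method or time, no feeder layer, no sex or age of the donor mice, no reporter promoter beyond the name Stra8-EGFP, and no number of lines behind the replicates. Background and cell line therefore cannot be told apart, and p-values measure only the spread between these samples. Values are log2 signals, on which 1 unit is a 2-fold difference. A microRNA probe set on this array is taken to match the hairpin sequence, and so to read primary and precursor RNA and not the mature microRNA. Probe sequences were not available to check it. Signals of different probe sets are not compared as levels of RNA.

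The markers fitted the labels in part. Each array correlated with the others of its group at a mean r of 0.992 or more over all genes. The mean log2 signal of 20 pluripotency genes was 10.97 to 11.38 on the undifferentiated arrays and 9.35 to 9.78 on the differentiated ones. A list of 21 measured fibroblast genes also gave high signals, from 8.64 to 10.7 over all arrays. Calls are from limma, fitted to all genes and arrays with Benjamini-Hochberg adjustment over 19938 genes, at an adjusted p under 0.05. Errors of changes are standard errors, errors of means are standard deviations (n = 3).

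The sequences below are those of the microRNAs on which the results turn, from RefSeq on build GRCm38.p6, 5′ to 3′, with the seed (bases 2 to 8, which choose a microRNA's targets) in capitals. Mature sequences were found for 38 of the 39 listed microRNA genes. miR-495-3p comes from the gene whose probe set differed by the largest amount between the ES backgrounds, and miR-127-3p from the gene whose probe set followed Meg3 most closely.
miR-495-3p: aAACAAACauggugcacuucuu
miR-127-3p: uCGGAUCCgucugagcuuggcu
The next pairs are the measured members that share a seed. miR-379-3p and miR-411-3p come from neighbouring genes. The genes of miR-376b-5p and miR-376c-5p have Mir654, which was not measured, between them.
miR-379-3p: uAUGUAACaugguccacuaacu
miR-411-3p: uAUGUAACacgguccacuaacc
miR-376b-5p: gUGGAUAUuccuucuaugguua
miR-376c-5p: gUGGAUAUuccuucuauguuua
miR-376a-5p lies next to that pair and has another seed, and both arms of the hairpin of Mir666, whose probe set changed least, are given for contrast.
miR-376a-5p: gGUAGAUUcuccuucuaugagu
miR-666-5p: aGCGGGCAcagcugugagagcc
miR-666-3p: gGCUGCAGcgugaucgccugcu
The promoter of Meg3 is shown because the maternal RNAs are known to start there, and most of the measured ones differed in 1 direction between the ES backgrounds. It covers chr12:109540746-109541045 on the plus strand, 250 bases before to 50 bases after the annotated start, with a cyclic AMP response element in capitals.
Meg3 promoter: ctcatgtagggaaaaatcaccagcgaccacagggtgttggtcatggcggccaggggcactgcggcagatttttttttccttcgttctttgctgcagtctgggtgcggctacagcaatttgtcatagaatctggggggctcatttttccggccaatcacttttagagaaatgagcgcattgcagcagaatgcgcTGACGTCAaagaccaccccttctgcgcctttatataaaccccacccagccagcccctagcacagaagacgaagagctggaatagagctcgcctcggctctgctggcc
The element, TGACGTCA, reads the same on both strands and was searched on both. It lies 49 bases before the start, and 1.79% of the 32851 promoter windows of this length in the same table hold it. The windows of Dlk1, Rian, Mirg and Dio3, and a second Meg3 window at chr12:109545148-109545447, do not have these letters. No binding was measured here.

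Meg3, the long non-coding RNA at the head of the maternal transcripts, was lowest in undifferentiated 129SV ES cells and higher in all other groups. Meg3 gave 11.40, 11.33 and 11.41 in 129SV ES cells, 11.82, 11.87 and 11.81 in 129SV adult cells, 12.75, 12.65 and 12.70 in Stra8 ES cells and 11.84, 11.87 and 11.88 in Stra8 adult cells. After differentiation Meg3 gave 12.87, 12.77 and 12.77 in ES cells and 12.83, 12.85 and 12.80 in adult cells. The 129SV ES arrays lay below every other array. The Stra8 ES arrays lay above both adult groups, which overlapped, and below both differentiated groups, which also overlapped. Stra8 ES cells exceeded 129SV ES cells by 1.32 ± 0.05 (limma adjusted p = 1.73e-12), and Stra8 adult cells differed from 129SV adult cells by 0.03 ± 0.05 (adjusted p = 0.644).

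Rian, the host of the small nucleolar RNAs, was highest in Stra8 ES cells and lowest in 129SV adult cells. Rian signals of 129SV were 8.54, 8.67 and 8.49 in ES and 7.57, 7.57 and 7.64 in adult cells, and those of Stra8 were 10.14, 10.12 and 10.10 and 9.15, 8.94 and 8.91. Rian signals after differentiation were 9.31, 9.29 and 9.31 in ES and 9.73, 9.58 and 9.80 in adult cells. Each group's arrays were separate from those of the next group in rank. Another probe set names Rian together with a further symbol and was not used. Adult cells were below ES cells in both backgrounds, with changes of -0.97 ± 0.07 in 129SV (limma adjusted p = 8.33e-09) and -1.12 ± 0.07 in Stra8 (adjusted p = 1.14e-08). The difference between these changes was -0.15 ± 0.10 and did not pass the test (adjusted p = 0.249), whereas for Meg3 it was -1.29 ± 0.07 (adjusted p = 2.04e-10).

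Dlk1, a membrane protein that resembles the Notch ligands and holds back fat cell formation, ran against Meg3 in the undifferentiated ES cells and with it upon differentiation. Dlk1 measured 9.79, 9.89 and 9.83 in ES and 9.15, 9.11 and 9.25 in adult cells of 129SV, and 8.65, 8.62 and 8.66 and 8.83, 8.77 and 8.75 in those of Stra8. Dlk1 measured 10.92, 10.77 and 10.96 in differentiated ES and 9.96, 10.11 and 9.96 in differentiated adult cells. No group's arrays overlapped those of another group. Dlk1 was lower in Stra8 than in 129SV ES cells, with a change of -1.19 ± 0.06 (limma adjusted p = 1.38e-10), the comparison in which Meg3 was 1.32 higher. It was higher in differentiated than in undifferentiated cells by 1.05 ± 0.06 for ES (adjusted p = 2.30e-10) and 0.84 ± 0.06 for adult cells (adjusted p = 3.84e-09), where Meg3 was higher by 1.42 and 0.99. Over the 18 arrays Dlk1 and Meg3 had a Pearson r of 0.30, a description over arrays that share 6 groups.

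Rtl1, a protein of retrotransposon origin needed in the placenta, had its highest mean in Stra8 ES cells and its lowest in Stra8 adult cells. Rtl1 gave 7.23, 7.29 and 7.29 in 129SV ES cells, 7.64, 7.63 and 7.85 in 129SV adult cells, 7.91, 7.83 and 7.83 in Stra8 ES cells and 7.23, 7.07 and 7.18 in Stra8 adult cells. After differentiation Rtl1 gave 7.49, 7.62 and 7.69 in ES cells and 7.42, 7.58 and 8.0 in adult cells. The Stra8 adult arrays lay below every other array, and the differentiated adult arrays ranged over 0.58. Rtl1 was 0.59 ± 0.11 higher in Stra8 than in 129SV ES cells (limma adjusted p = 3.21e-04) and lower in Stra8 adult than in Stra8 ES cells, with a change of -0.70 ± 0.11 (adjusted p = 1.36e-04), the directions of Meg3 rather than of Dlk1. A maternal RNA runs across Rtl1 on the opposite strand and carries Mir431, Mir127 and their neighbours. Whether RNA of that strand reached the Rtl1 probe set was not tested.

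Dio3, the enzyme that inactivates thyroid hormone, had a mean signal of 6.12 over the 18 arrays, at the 23.3 percentile of all genes. Dio3 signals of 129SV were 6.38, 6.23 and 6.07 in ES and 6.19, 6.60 and 6.48 in adult cells, and those of Stra8 were 6.10, 6.23 and 6.25 and 5.93, 6.01 and 5.91. Dio3 signals after differentiation were 5.84, 5.89 and 6.19 in ES and 5.85, 5.94 and 6.04 in adult cells. Neighbouring groups overlapped throughout. Differentiated adult cells were lower than undifferentiated ones, with a change of -0.48 ± 0.11 (limma adjusted p = 0.00108) and Stra8 adult cells lower than 129SV adult cells, with one of -0.47 ± 0.11 (adjusted p = 0.00163). The other comparisons of 2 groups did not pass the test, and in ES cells upon differentiation the value was -0.25 ± 0.11 (adjusted p = 0.0598), which passed with arrays centred on their medians (-0.38, adjusted p = 0.006).

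**Figure D1:**
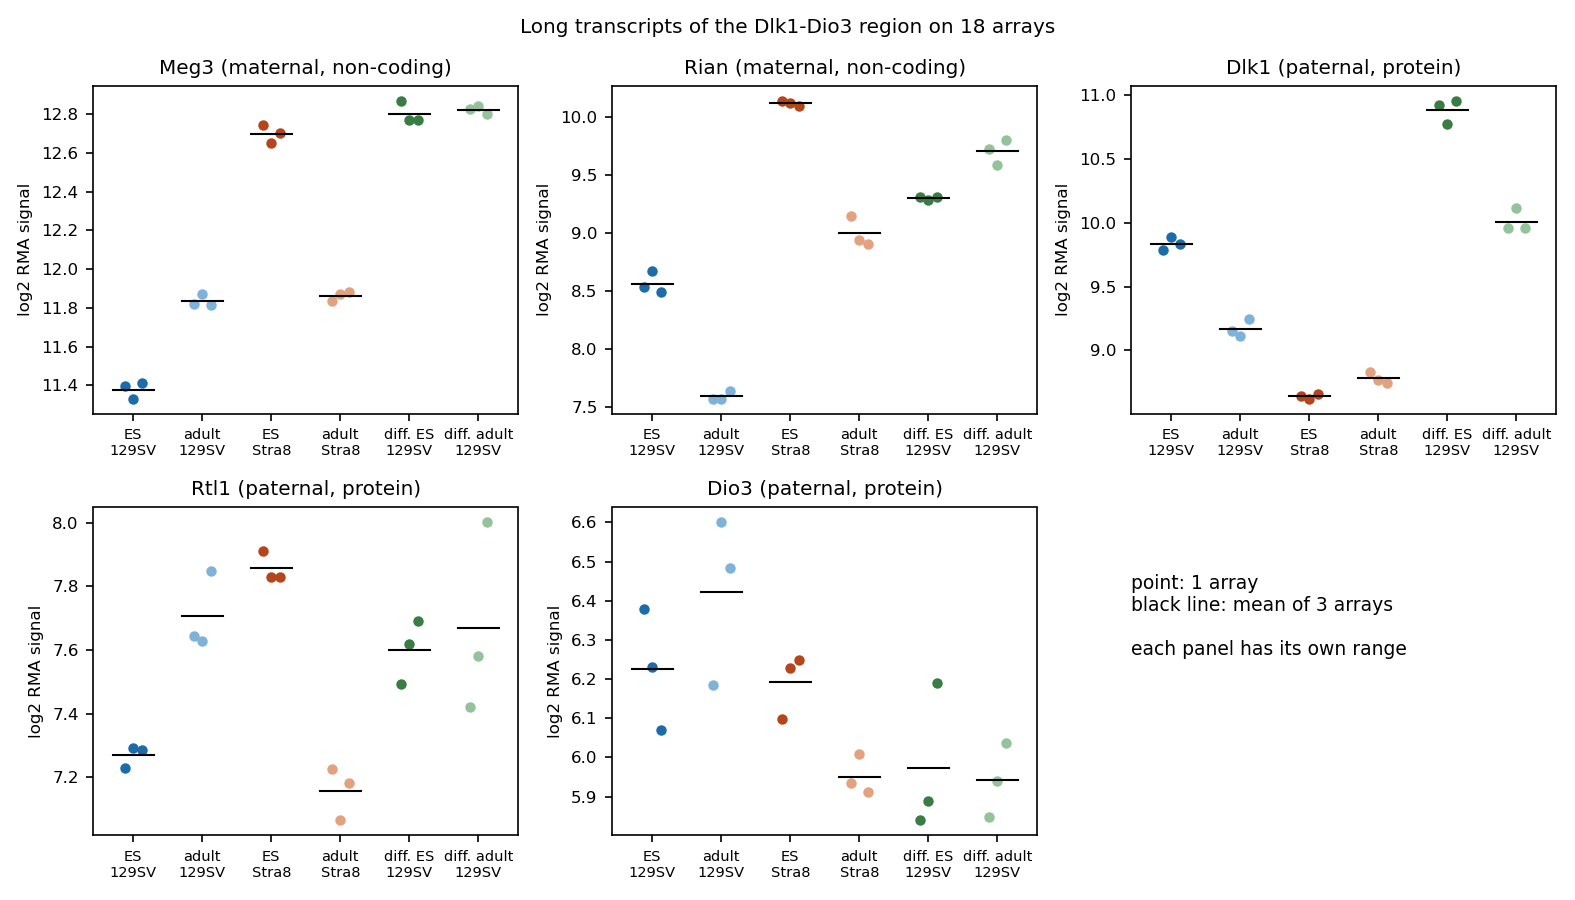
Log2 signal of Meg3, Rian, Dlk1, Rtl1 and Dio3 on each of the 18 arrays by group, 1 point per array with the mean of 3 as a black line, each panel with its own range. Meg3 is lowest in 129SV ES cells (mean 11.4) and Dlk1 lowest in Stra8 ES cells (mean 8.64), while Dio3 stays between 5.84 and 6.60.

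In undifferentiated ES cells the region differed most between the backgrounds. Of 39 genes, 36 were higher in Stra8 than in 129SV cells and 1, Dlk1, was lower, with Dio3 (-0.03) and Mir666 (0.15) not past the test. Over all genes 21.3% were called higher and 20.0% lower. At 2-fold or more 26 region genes were higher and Dlk1 was lower, against 1.12% and 3.42% of all genes. The median change of the 39 genes was 1.39 and that of all genes -0.01. With arrays centred on their medians the share of higher among called genes was 41.5% against 51.6%, and the region still had 36 higher and 1 lower. Of the 34 microRNA genes 33 were higher, with a median of 1.48, from 0.15 for Mir666 to 3.35 for Mir495, and adjusted p-values of those called from 1.03e-10 (Mir665) to 0.00611 (Mir431) in limma. On 19 of the 34 microRNA probe sets the 3 Stra8 ES arrays were the highest 3 of all 18, and on 10 the 3 arrays of 129SV ES cells were the lowest 3. How often arrays fell this way over all genes was not counted, so these counts only describe the members. Fibroblast genes went the other way in this comparison, with 20 of 21 lower in Stra8 ES cells (median -1.09).

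**Figure D2:**
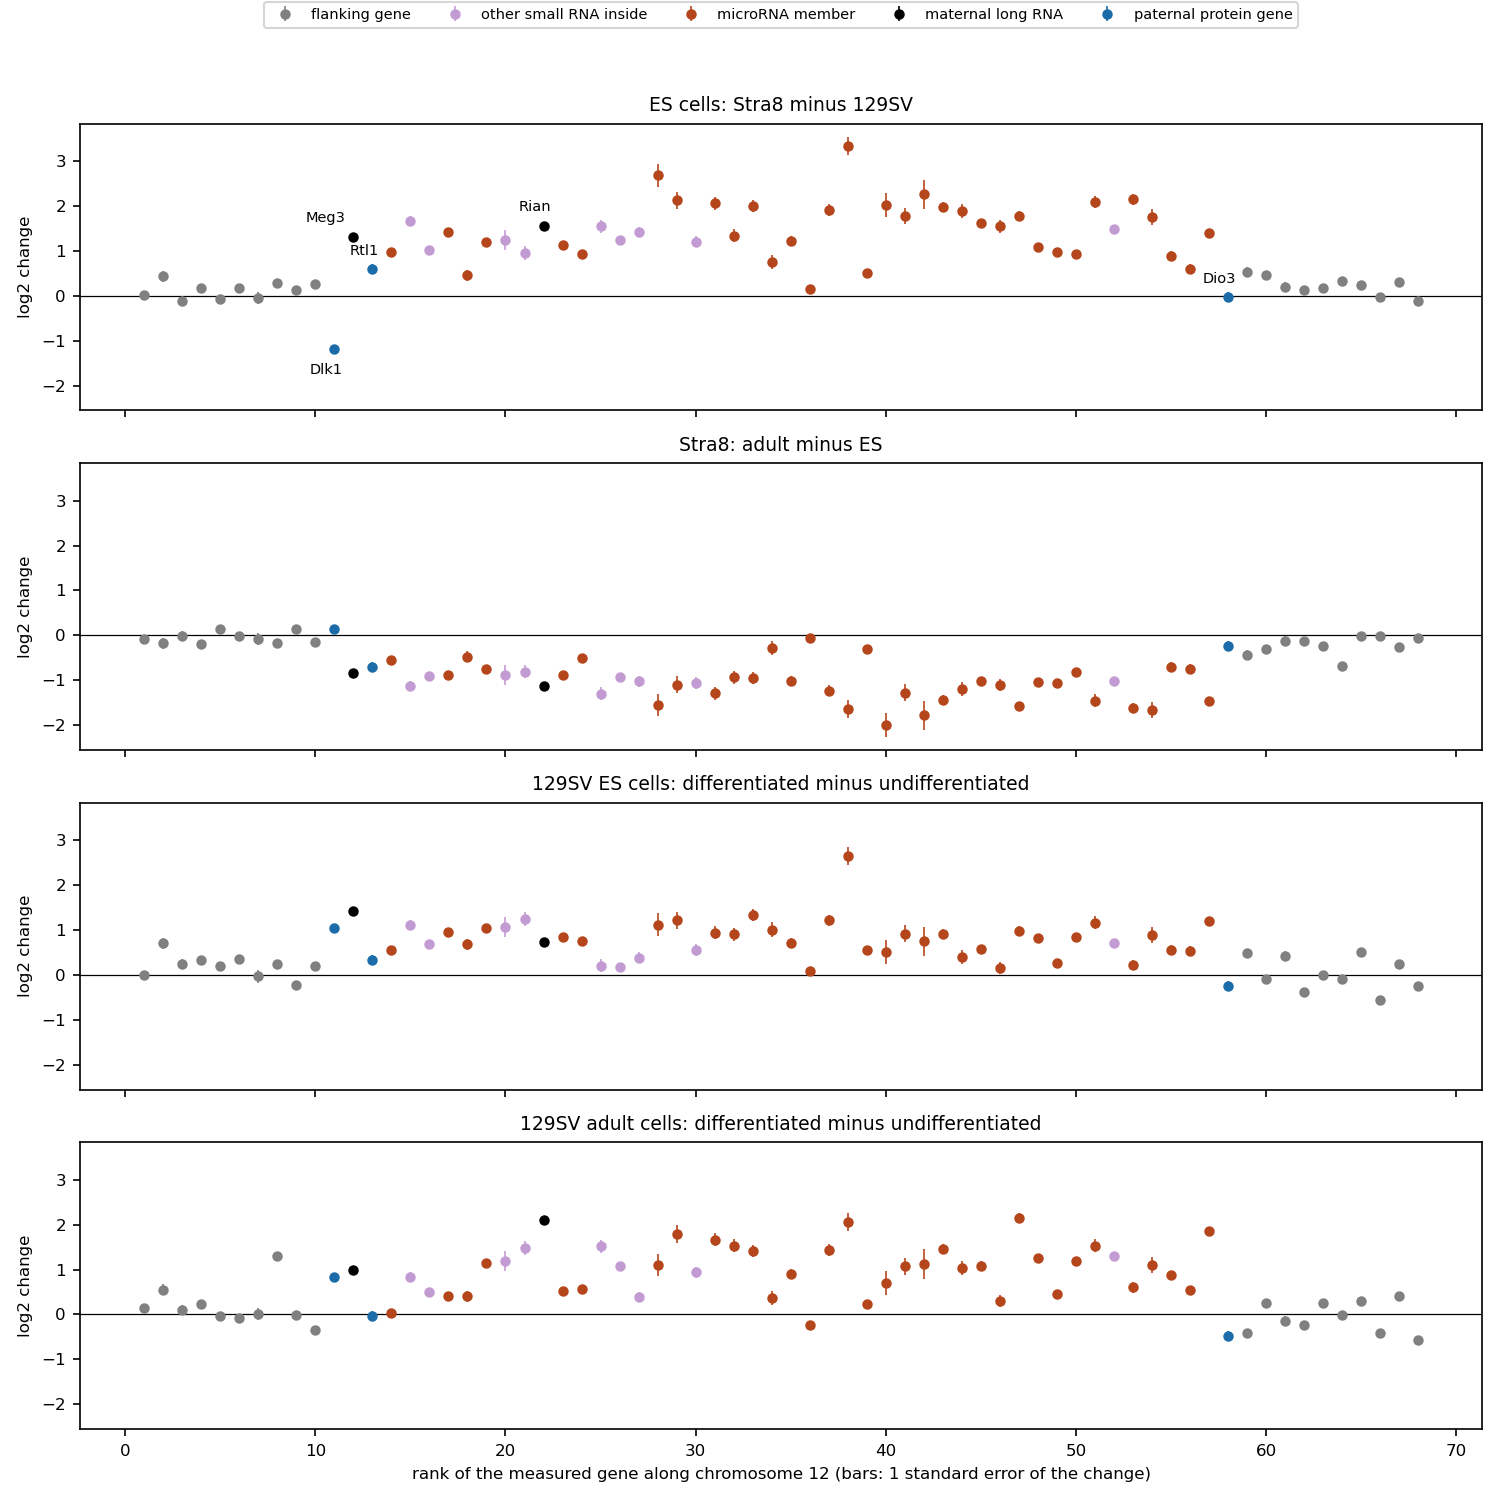
Log2 change of each measured gene of the region and of the 10 nearest measured genes on either side, by rank along chromosome 12, with 1 standard error, in 4 comparisons. In the top panel the RNAs from Meg3 to the last microRNA lie between 0.15 and 3.35, Dlk1 at -1.19, and the flanking genes between -0.11 and 0.53.

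The microRNA genes fall in 3 stretches. Between Meg3 and Rian, 4 were measured, all higher in Stra8 ES cells with a median of 1.08. Mir665 and Mir127, which lies opposite Rtl1 and can direct cleavage of its messenger RNA, passed 2-fold. Mir665 measured 7.24, 7.21 and 7.37 in ES and 8.05, 7.87 and 7.97 in adult cells of 129SV, and 8.74, 8.59 and 8.73 and 7.71, 7.87 and 7.83 in those of Stra8. Mir665 measured 8.32, 8.27 and 8.09 in differentiated ES and 8.37, 8.39 and 8.37 in differentiated adult cells. Mir665 was 1.41 higher in Stra8 than in 129SV ES cells, its 129SV ES arrays lowest of all. Mir127 gave 7.12, 7.28 and 7.35 in 129SV ES cells, 7.46, 7.65 and 7.62 in 129SV adult cells, 8.49, 8.37 and 8.48 in Stra8 ES cells and 7.66, 7.66 and 7.75 in Stra8 adult cells. After differentiation Mir127 gave 8.39, 8.20 and 8.29 in ES cells and 8.61, 8.83 and 8.72 in adult cells. For Mir127 the differentiated adult arrays were the highest, and the change between ES backgrounds was 1.20. Mir127 had an r of 0.965 with Meg3 over the 18 arrays, above that of each of 5463 genes outside the member list that were compared. The other 2 of this stretch, Mir673 (0.97) and Mir431 (0.46), stayed under 2-fold.

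Within Rian, 2 microRNA genes were measured, with changes of 0.92 for Mir370 and 1.12 for Mir341. Mir341 signals of 129SV were 9.33, 9.51 and 9.43 in ES and 9.54, 9.82 and 9.65 in adult cells, and those of Stra8 were 10.56, 10.56 and 10.53 and 9.77, 9.60 and 9.60. Mir341 signals after differentiation were 10.19, 10.14 and 10.47 in ES and 10.27, 10.16 and 10.15 in adult cells. All Stra8 ES arrays of Mir341 exceeded the rest. The third stretch starts at Mir379 and ends at Mir369, and 27 of its 28 measured genes were higher in Stra8 ES cells, with a median of 1.77. Mir379 and Mir411 open it and share a seed in their 3p arms. Mir379 measured 4.82, 4.59 and 5.04 in ES and 5.66, 5.26 and 5.71 in adult cells of 129SV, and 7.64, 7.30 and 7.55 and 6.16, 5.99 and 5.68 in those of Stra8. Mir379 measured 6.05, 6.47 and 5.29 in differentiated ES and 6.86, 6.91 and 6.18 in differentiated adult cells. In Stra8 ES cells Mir379 was 2.68 higher than in 129SV ES cells. Mir411 gave 5.45, 5.59 and 5.68 in 129SV ES cells, 5.44, 5.44 and 4.98 in 129SV adult cells, 7.78, 7.57 and 7.74 in Stra8 ES cells and 6.72, 6.68 and 6.41 in Stra8 adult cells. After differentiation Mir411 gave 6.81, 7.12 and 6.42 in ES cells and 7.33, 7.34 and 6.58 in adult cells. Its change was 2.13, and here the lowest arrays were those of 129SV adult cells. Mir379 was 0.73 ± 0.25 higher in adult than in ES cells of 129SV (limma adjusted p = 0.025), a call lost without replicate 1 or 2 of the ES cells or replicate 1 or 3 of the adult cells (adjusted p 0.0564 to 0.0955). Mir411 stood at -0.29 ± 0.20 there (adjusted p = 0.256), and the difference between the genes was not tested.

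The next genes along are Mir380, Mir323 and Mir329. Mir380 signals of 129SV were 6.22, 5.98 and 6.22 in ES and 6.46, 6.63 and 6.15 in adult cells, and those of Stra8 were 8.17, 8.15 and 8.28 and 7.12, 6.92 and 6.67. Mir380 signals after differentiation were 7.30, 7.12 and 6.83 in ES and 7.84, 8.18 and 8.24 in adult cells. The Stra8 ES and the differentiated adult arrays of Mir380 overlapped, above all others. Mir323 measured 6.53, 6.28 and 6.28 in ES and 5.99, 6.45 and 6.30 in adult cells of 129SV, and 7.99, 7.57 and 7.53 and 6.92, 6.77 and 6.61 in those of Stra8. Mir323 measured 7.47, 7.02 and 7.32 in differentiated ES and 7.72, 7.88 and 7.74 in differentiated adult cells. Mir323 showed the same overlap, at a change of 1.34 between ES backgrounds. Mir329 gave 7.61, 7.55 and 7.67 in 129SV ES cells, 8.05, 7.89 and 7.90 in 129SV adult cells, 9.66, 9.60 and 9.56 in Stra8 ES cells and 8.69, 8.69 and 8.60 in Stra8 adult cells. After differentiation Mir329 gave 9.13, 9.11 and 8.59 in ES cells and 9.54, 9.53 and 9.0 in adult cells. Mir329 had its lowest arrays in 129SV ES cells and changed by 2.0.

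Mir494, Mir679 and Mir543 follow. Mir494 signals of 129SV were 7.05, 7.38 and 7.24 in ES and 7.18, 7.99 and 7.48 in adult cells, and those of Stra8 were 7.76, 8.01 and 8.14 and 7.73, 7.66 and 7.68. Mir494 signals after differentiation were 8.34, 8.30 and 8.06 in ES and 8.10, 7.75 and 7.89 in adult cells. Mir494 departed from most microRNAs of the stretch. It was 0.75 higher in Stra8 ES cells, its change from Stra8 ES to Stra8 adult cells was -0.28 ± 0.16 (limma adjusted p = 0.237), and 1 array of 129SV adult cells reached 7.99. Mir679 measured 8.35, 8.35 and 8.30 in ES and 8.36, 8.75 and 8.46 in adult cells of 129SV, and 9.56, 9.55 and 9.57 and 8.60, 8.56 and 8.49 in those of Stra8. Mir679 measured 8.99, 8.89 and 9.29 in differentiated ES and 9.20, 9.52 and 9.53 in differentiated adult cells. The Stra8 ES arrays of Mir679 ranged over 0.03 and were the highest. Mir543 gave 5.38, 5.27 and 5.26 in 129SV ES cells, 5.87, 5.30 and 5.28 in 129SV adult cells, 7.28, 7.11 and 7.26 in Stra8 ES cells and 5.99, 5.99 and 5.96 in Stra8 adult cells. After differentiation Mir543 gave 6.65, 6.43 and 6.49 in ES cells and 6.79, 7.11 and 6.86 in adult cells. Mir543 was 1.91 higher in Stra8 than in 129SV ES cells.

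Mir495 had the largest change of the region. Mir495 signals of 129SV were 4.52, 4.75 and 4.92 in ES and 5.34, 5.69 and 5.40 in adult cells, and those of Stra8 were 8.01, 8.14 and 8.09 and 6.48, 6.54 and 6.26. Mir495 signals after differentiation were 7.56, 7.81 and 6.76 in ES and 7.73, 7.60 and 7.30 in adult cells. Every Stra8 ES array exceeded every other array and every 129SV ES array lay below. The difference was 3.35 ± 0.20 (limma adjusted p = 6.84e-10). Mir666, 2 genes before it, stayed between 7.90 and 8.34 on all 18 arrays, and its highest arrays were those of 129SV adult cells.

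The RNAs of the Mir376 family are known targets of adenosine-to-inosine editing, and all 3 genes were highest on the Stra8 ES arrays. Mir376c measured 3.21, 3.21 and 3.10 in ES and 3.0, 3.26 and 3.01 in adult cells of 129SV, and 5.11, 5.24 and 5.22 and 3.11, 3.17 and 3.29 in those of Stra8. Mir376c measured 3.68, 4.42 and 2.93 in differentiated ES and 3.96, 4.14 and 3.25 in differentiated adult cells. Mir376c was 2.02 higher in Stra8 than in 129SV ES cells, and its lowest group mean was that of 129SV adult cells. Mir376b gave 4.83, 5.03 and 4.86 in 129SV ES cells, 4.86, 5.33 and 4.86 in 129SV adult cells, 6.77, 6.56 and 6.70 in Stra8 ES cells and 5.60, 5.31 and 5.29 in Stra8 adult cells. After differentiation Mir376b gave 5.89, 6.20 and 5.39 in ES cells and 6.18, 6.31 and 5.77 in adult cells. Its change between ES backgrounds was 1.77. Mir376a signals of 129SV were 2.80, 2.84 and 2.80 in ES and 2.91, 2.78 and 2.97 in adult cells, and those of Stra8 were 5.0, 5.06 and 5.18 and 3.35, 3.40 and 3.14. Mir376a signals after differentiation were 3.52, 4.53 and 2.63 in ES and 4.59, 3.97 and 3.49 in adult cells. Here the change was 2.26. Among differentiated ES arrays replicate 3 was the lowest of the 3 and replicate 2 the highest in each. For Mir376a the differentiated ES arrays ranged over 1.91. The probe sets of Mir376a and Mir376c are among the dimmest, with mean signals at the 1.9 and 2.1 percentile of all genes. The hairpins of Mir376b and Mir376c share 80.7% of aligned bases, and whether their probes tell them apart was not tested.

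Mir300, Mir381, Mir487b and Mir539 were all highest on the Stra8 ES arrays. Mir300 measured 7.24, 7.23 and 7.17 in ES and 7.35, 7.28 and 7.31 in adult cells of 129SV, and 9.18, 9.14 and 9.24 and 7.88, 7.80 and 7.53 in those of Stra8. Mir300 measured 8.27, 8.30 and 7.81 in differentiated ES and 8.82, 8.85 and 8.65 in differentiated adult cells. The 129SV ES arrays of Mir300 were the lowest. Mir381 gave 6.33, 6.54 and 5.97 in 129SV ES cells, 6.36, 6.25 and 6.45 in 129SV adult cells, 8.22, 8.04 and 8.26 in Stra8 ES cells and 6.99, 7.04 and 6.86 in Stra8 adult cells. After differentiation Mir381 gave 6.83, 6.89 and 6.29 in ES cells and 7.51, 7.52 and 7.16 in adult cells. Hairpins of these neighbours share 73.8% of aligned bases, and their changes between ES backgrounds were 1.97 and 1.89. Mir487b signals of 129SV were 7.61, 7.54 and 7.56 in ES and 7.61, 7.81 and 7.47 in adult cells, and those of Stra8 were 9.19, 9.20 and 9.16 and 8.30, 8.13 and 8.05. Mir487b signals after differentiation were 8.04, 8.03 and 8.36 in ES and 8.57, 8.89 and 8.70 in adult cells. Mir487b was 1.61 higher in Stra8 than in 129SV ES cells. Mir539 measured 7.60, 7.74 and 7.40 in ES and 7.85, 7.96 and 7.91 in adult cells of 129SV, and 9.0, 9.19 and 9.18 and 8.04, 8.02 and 8.0 in those of Stra8. Mir539 measured 7.89, 8.0 and 7.31 in differentiated ES and 8.34, 8.28 and 8.01 in differentiated adult cells. Mir539 was 1.55 higher. On Mir381 and Mir539 replicate 3 of the differentiated ES cells was the lowest of its group, and the 3 arrays ranged over 0.60 and 0.69.

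Mir382 and Mir134, the latter known for limiting the growth of dendritic spines in neurons, stood apart from most others in where they were lowest. Mir382 gave 8.21, 8.26 and 7.96 in 129SV ES cells, 7.67, 7.49 and 7.57 in 129SV adult cells, 9.91, 9.96 and 9.90 in Stra8 ES cells and 8.52, 8.18 and 8.31 in Stra8 adult cells. After differentiation Mir382 gave 9.19, 9.29 and 8.89 in ES cells and 9.71, 9.79 and 9.68 in adult cells. Its Stra8 ES arrays were the highest. Mir134 signals of 129SV were 9.03, 8.98 and 8.95 in ES and 8.76, 8.88 and 8.90 in adult cells, and those of Stra8 were 10.14, 10.06 and 10.04 and 9.06, 9.01 and 9.04. Mir134 signals after differentiation were 9.87, 9.60 and 9.95 in ES and 9.97, 10.06 and 10.30 in adult cells. Both genes had their 3 lowest arrays in 129SV adult cells rather than in ES cells. Mir382 was lower in adult than in ES cells of 129SV, with a change of -0.56 ± 0.10 (limma adjusted p = 2.63e-04), the only microRNA gene called lower there, and Mir134 stood at -0.14 ± 0.09 (adjusted p = 0.21).

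The last group runs from Mir668 to Mir369. Mir668 measured 8.56, 8.63 and 8.63 in ES and 8.80, 8.89 and 8.87 in adult cells of 129SV, and 9.54, 9.63 and 9.57 and 8.57, 8.54 and 8.43 in those of Stra8. Mir668 measured 8.88, 8.86 and 8.88 in differentiated ES and 9.28, 9.34 and 9.31 in differentiated adult cells. Mir668 was highest in Stra8 ES cells, without overlap. Mir485 gave 6.98, 7.08 and 6.86 in 129SV ES cells, 6.92, 6.82 and 6.99 in 129SV adult cells, 7.80, 7.98 and 7.93 in Stra8 ES cells and 7.10, 7.04 and 7.15 in Stra8 adult cells. After differentiation Mir485 gave 7.81, 7.72 and 7.90 in ES cells and 8.06, 8.16 and 8.08 in adult cells. Mir485 was highest in differentiated adult cells, also without overlap. Mir154 signals of 129SV were 5.33, 5.88 and 5.65 in ES and 5.86, 5.79 and 5.79 in adult cells, and those of Stra8 were 7.80, 7.59 and 7.73 and 6.50, 6.07 and 6.18. Mir154 signals after differentiation were 6.82, 6.84 and 6.69 in ES and 7.23, 7.65 and 7.16 in adult cells. Mir154 was 2.09 higher in Stra8 than in 129SV ES cells. Mir377 measured 7.25, 7.09 and 7.32 in ES and 7.65, 7.34 and 7.74 in adult cells of 129SV, and 9.42, 9.33 and 9.35 and 7.88, 7.77 and 7.59 in those of Stra8. Mir377 measured 7.65, 7.50 and 7.16 in differentiated ES and 8.21, 8.20 and 8.12 in differentiated adult cells. Mir377 was 2.15 higher in Stra8 than in 129SV ES cells, and its differentiated ES arrays overlapped the undifferentiated ones (0.22 ± 0.12, limma adjusted p = 0.132). Mir541 gave 5.52, 5.20 and 5.37 in 129SV ES cells, 5.86, 5.70 and 6.03 in 129SV adult cells, 7.19, 7.09 and 7.08 in Stra8 ES cells and 5.48, 5.60 and 5.26 in Stra8 adult cells. After differentiation Mir541 gave 6.51, 6.56 and 5.67 in ES cells and 6.95, 7.07 and 6.85 in adult cells. Mir541 was 1.76 higher in Stra8 than in 129SV ES cells. Its Stra8 adult arrays overlapped those of 129SV ES cells, as also happened for Mir668, Mir485 and Mir369 of this group. Mir369 signals of 129SV were 5.58, 5.55 and 5.47 in ES and 5.39, 5.36 and 5.48 in adult cells, and those of Stra8 were 7.01, 6.80 and 6.96 and 5.50, 5.44 and 5.44. Mir369 signals after differentiation were 6.68, 6.81 and 6.72 in ES and 7.23, 7.52 and 7.05 in adult cells. Mir369 ended the stretch with its highest arrays in differentiated adult cells. The remaining Mir667, Mir409 and Mir412 were 0.51, 0.89 and 0.60 higher in Stra8 than in 129SV ES cells.

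**Figure D3:**
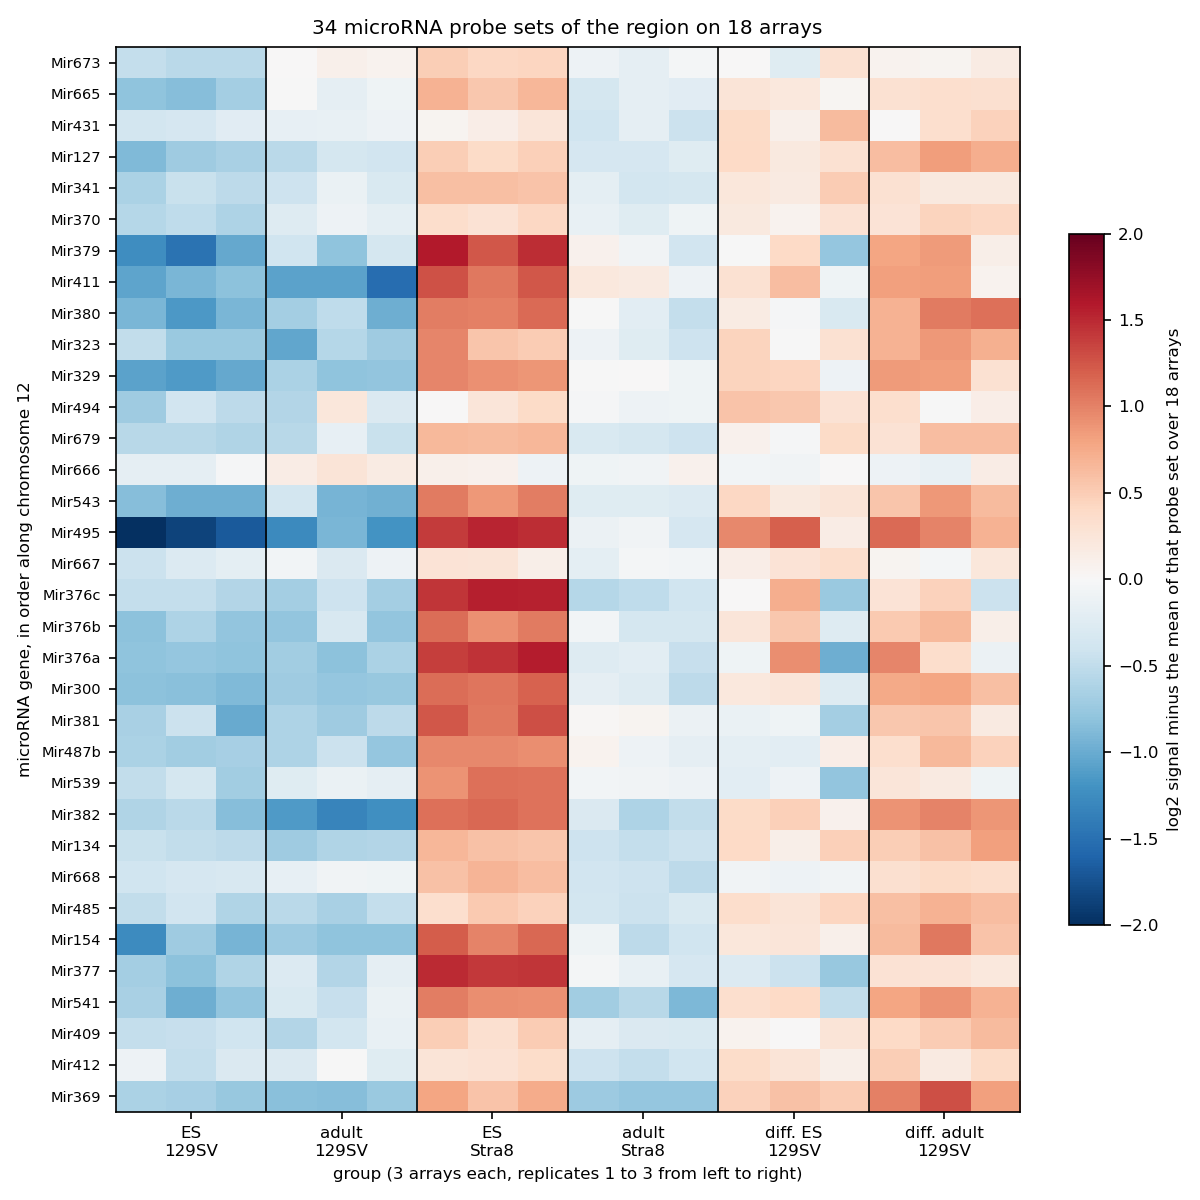
Log2 signal of 34 microRNA probe sets, in order along chromosome 12, on 18 arrays, each relative to its own mean over the arrays, with colours ending at -2 and 2. The Stra8 ES columns are red for nearly all genes (22 of 34 have their highest group mean there) and the 129SV ES columns blue (24 of 34 have their lowest there), and Mir666 stays near white.

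In the Stra8 background adult cells had less of the maternal RNAs than ES cells. In limma none of the 39 genes was called higher (1 at an unadjusted p under 0.05, Dlk1) and 35 were lower, against 13.2% of all genes higher and 15.1% lower. Of these, 21 were lower by at least 2-fold, against 0.266% of all genes, and the median was -1.02 against 0.00. The exceptions were Dlk1 (0.14 ± 0.06, limma adjusted p = 0.113), Dio3 (-0.24 ± 0.11, adjusted p = 0.122), Mir494 and Mir666 (-0.05 ± 0.08, adjusted p = 0.744). Among the genes called lower were Meg3 (-0.84 ± 0.05, adjusted p = 4.93e-09), Mir376c (-2.0 ± 0.27, adjusted p = 2.49e-05), Mir541 (-1.67 ± 0.18, adjusted p = 2.13e-06) and Mir377 (-1.62 ± 0.12, adjusted p = 4.81e-08). Of these, Mir376c is a dim probe set, with a mean signal at the 2.1 percentile of all genes. This comparison and the one between ES backgrounds share the Stra8 ES arrays, so the same high arrays enter both. Fibroblast genes were higher in Stra8 adult than in Stra8 ES cells for 21 of 21 measured (median 0.75).

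In 129SV cells the adult minus ES changes were smaller and mostly of the other sign. Of 39 genes 13 were higher in adult cells and 3 lower, none by 2-fold, with 23.0% of all genes higher and 23.1% lower. That is a share of higher calls of the same order as the background and a smaller share of lower calls. The median was 0.19. Higher were Meg3 (0.45 ± 0.05, limma adjusted p = 7.48e-07), Rtl1 (0.44 ± 0.11, adjusted p = 0.00351) and 11 microRNA genes led by Mir495 (0.75 ± 0.20, adjusted p = 0.00534), Mir379 (0.73) and Mir665 (0.69 ± 0.07, adjusted p = 6.29e-07). The 3 lower genes were Rian (-0.97), Dlk1 (-0.67 ± 0.06, adjusted p = 1.68e-07) and Mir382. The 2 measured microRNA genes within Rian, Mir370 and Mir341, were called higher, with changes from 0.245 to 0.382. Mir341 lost this call without any 1 of 4 arrays. Of the 9 other small RNAs measured inside the region, 3 were higher and 2 lower.

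The difference between the backgrounds in the adult minus ES change was tested itself. It was negative and called for 37 of 39 genes and positive for 1, Dlk1 (0.81 ± 0.09, limma adjusted p = 1.12e-06), against 21.8% and 21.3% of all genes. By at least 2-fold 25 were called lower, against 2.30% of all genes. All 34 microRNA genes were among the 37, from -0.37 for Mir666 to -2.40 for Mir495. Rian was the 1 gene not called. Mir494 (-0.60) lost its call with arrays centred (adjusted p = 0.0552), with quantile normalisation (0.0576) and when any of 8 arrays was left out: replicate 2 or 3 of the Stra8 ES cells, 1 or 3 of the 129SV ES cells, 2 of the 129SV adult cells, or any of the Stra8 adult cells (0.057 to 0.104). Mir411 lost its call without replicate 1 or 3 of the Stra8 ES cells, 1 of the 129SV ES cells, 1 or 2 of the 129SV adult cells, or 3 of the Stra8 adult cells (adjusted p 0.0506 to 0.0675). Dio3 (-0.44 ± 0.15, adjusted p = 0.0305) passed narrowly, and its adjusted p rose to between 0.0508 and 0.0869 when replicate 2 or 3 of the 129SV ES, 129SV adult or Stra8 ES cells, or replicate 1 or 3 of the Stra8 adult cells, was left out.

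Most of the region was higher in differentiated than in undifferentiated 129SV ES cells. Of 39 genes 33 were higher in differentiated cells and none lower in limma (1 at an unadjusted p under 0.05, Dio3), against 27.9% and 27.3% of all genes. By at least 2-fold 11 were higher, against 4.82%, and the median was 0.84 against 0.05. With arrays centred on their medians the median of all genes was -0.08, the share of higher among called genes fell from 50.5% to 37.1%, and the region had 31 higher and 1 lower, Dio3. Meg3 (1.42 ± 0.05, limma adjusted p = 1.84e-13), Mir495 (2.64 ± 0.20, adjusted p = 4.85e-09), Mir329 (1.34 ± 0.14, adjusted p = 2.56e-07) and Mir543 (1.22 ± 0.13, adjusted p = 2.38e-07) were among the genes that rose. Not past the test were Dio3, Mir376a, Mir376c, Mir377, Mir539 and Mir666. Without replicate 3 of the differentiated ES cells, Mir376a (1.21, adjusted p = 8.72e-04), Mir376c (0.88, adjusted p = 0.00229), Mir377 (0.35, adjusted p = 0.0104) and Mir539 (0.36, adjusted p = 0.0063) passed as higher, Dio3 passed as lower (-0.36, adjusted p = 0.00903) and Rtl1 was lost, which gave 36 higher and 1 lower. Rtl1 (0.33 ± 0.11, adjusted p = 0.0168) was lost with arrays centred (0.21, adjusted p = 0.122), without replicate 3 of the differentiated ES cells (adjusted p = 0.0604), and without replicate 1 of the 129SV ES cells (adjusted p = 0.0519). Mir381 was lost with arrays centred too (0.39 ± 0.16, adjusted p = 0.0408, against 0.27, adjusted p = 0.168), and without replicate 1 or 2 of the differentiated ES cells or replicate 1 or 3 of the 129SV ES cells (adjusted p 0.0627 to 0.225). Fibroblast genes were lower in differentiated ES cells for 19 of 21 (median -1.44). Fewer cells of a type and less RNA per cell cannot be told apart in these bulk samples.

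Differentiation of 129SV adult cells gave 33 higher and 2 lower genes of 39, against 27.5% and 32.2% of all genes. Of these, 20 were higher by at least 2-fold, against 7.53%, with a median of 1.04 against -0.08. With arrays centred the share of higher among called genes was 35.9% against 46.0%, and the region had 31 higher and 2 lower. Mir382 (2.15 ± 0.10, limma adjusted p = 1.77e-11), Rian (2.11 ± 0.07, adjusted p = 1.85e-13), Mir495 (2.07 ± 0.20, adjusted p = 1.02e-07), Mir369 (1.86 ± 0.09, adjusted p = 2.11e-11) and Mir411 (1.80 ± 0.20, adjusted p = 4.79e-07) rose most. Dio3 and Mir666 (-0.23 ± 0.08, adjusted p = 0.0212) fell, and 1 gene was called lower without replicate 1 or 2 of the differentiated or replicate 2 of the undifferentiated adult cells. Rtl1 was at -0.04 ± 0.11 (adjusted p = 0.785), and without replicate 3 of the differentiated adult cells, its highest array, it was -0.21 and passed (adjusted p = 0.0413). Mir376c (0.69 ± 0.27, adjusted p = 0.0327) had overlapping arrays and lost its call without replicate 1 or 2 of the differentiated adult cells or replicate 1 or 3 of the 129SV adult cells (adjusted p 0.0811 to 0.148), and with arrays centred (0.60, adjusted p = 0.0578).

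The response to differentiation differed between adult and ES cells for fewer genes, and in both directions. A larger change in adult cells was called for 11 of 39 genes and a smaller one for 7, against 24.2% and 21.5% of all genes, shares close to the background. By at least 2-fold 2 were larger, Rian (1.37 ± 0.10, limma adjusted p = 1.27e-08) and Mir382 (1.17 ± 0.15, adjusted p = 7.52e-06), against 5.43% of all genes. The count of smaller changes was 3 without replicate 1 of the 129SV ES cells, and 4 without replicate 2 of the 129SV adult cells or replicate 2 of the differentiated adult cells. Smaller were Meg3 (-0.43 ± 0.07, adjusted p = 7.48e-05), Mir665 (-0.54 ± 0.10, adjusted p = 4.13e-04) and 5 further microRNA genes. The median of the 4 microRNA genes between Meg3 and Rian was -0.40 and that of the 28 from Mir379 on was 0.27.

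Between the differentiated groups themselves, 21 genes were higher in adult than in ES derivatives and 1, Dlk1, lower (-0.88 ± 0.06, limma adjusted p = 2.29e-08), against 19.4% and 12.8% of all genes. Mir380 (1.00 ± 0.15, adjusted p = 5.32e-05) alone passed 2-fold, against 0.677% of all genes. Of the higher genes, 19 were microRNA genes from Mir379 on, and Meg3 was at 0.02 ± 0.05 (adjusted p = 0.771). Among the 19, Mir134, Mir323, Mir329, Mir379, Mir539, Mir543 and Mir679 each lost the call without any 1 of 2 to 4 arrays (adjusted p 0.0504 to 0.207). On only the arrays compared, 15 region genes were higher. Rian was 0.40 higher (adjusted p = 2.87e-04).

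In adult cells the backgrounds differed less than in ES cells. Stra8 adult cells had 13 genes higher and 5 lower than 129SV adult cells, against 24.2% and 26.8% of all genes, so neither share stood above the background by much. By at least 2-fold 2 were higher, Rian (1.40 ± 0.07, limma adjusted p = 1.15e-10) and Mir411 (1.32 ± 0.20, adjusted p = 2.59e-05), against 3.55% of all genes, and the median was 0.12. With array weights the count of lower genes was 8. The lower genes were the 3 paternally expressed ones, Rtl1 (-0.55 ± 0.11, adjusted p = 4.85e-04), Dio3 and Dlk1 (-0.39 ± 0.06, adjusted p = 5.67e-05), with Mir668 and Mir666. Rian was thus 1.40 to 1.56 higher in Stra8 than in 129SV cells in both cell types, whereas Meg3 was 1.32 higher in ES and 0.03 in adult cells.

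Base composition varied with the size of the change. Hairpin sequences were found for 33 of the 34 measured microRNA genes, all but Mir666, with 29.1% to 62.0% of G and C bases. In the comparison of ES backgrounds, Spearman's rho between G and C share and change was -0.70 over these 33 genes, and the 11 with the largest changes had a median of 41.2% against 56.1% for the 11 with the smallest. In the Stra8 adult minus ES comparison, which shares the Stra8 ES arrays, rho was 0.71. Over 219 matched microRNA genes outside the region rho was -0.18 and 0.14 in these comparisons. Over the 33 genes of the region rho was 0.53 between G and C share and mean signal. Between mean signal and change it was -0.37 for the ES backgrounds and 0.43 for Stra8 adult minus ES. Probes of 1 array share hybridisation conditions. The part of base composition in the size of the changes was not tested. Position along the region had a rho of 0.03 with the change between ES backgrounds and of -0.37 with the Stra8 adult minus ES change. Of 528 pairs of hairpins, 9 shared 70% or more of aligned bases.

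**Figure D4:**
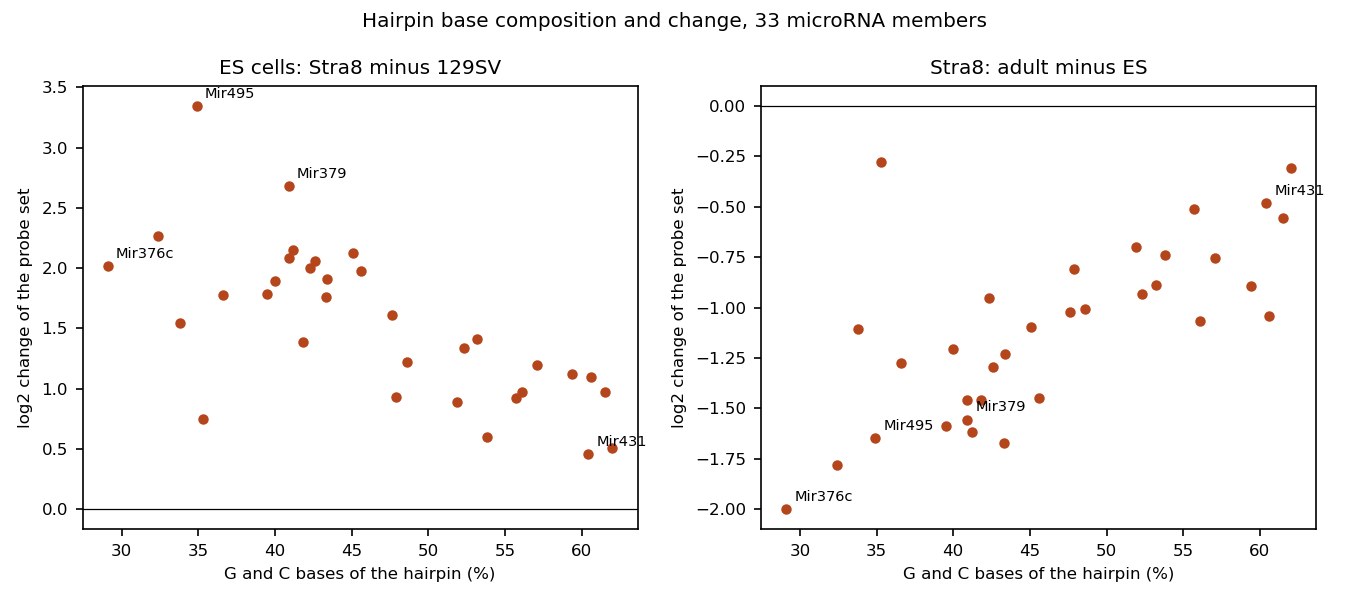
Log2 change against the percentage of G and C bases in the hairpin for 33 microRNA genes, in ES cells between backgrounds (left) and in Stra8 cells between adult and ES (right), 1 point per gene. Changes are larger at low percentages, with Mir376c (29.1%) at 2.02 and -2.0 and Mir431 (60.4%) at 0.46 and -0.48.

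Other small RNAs inside the region moved with the members. Mir337, Mir540, Mir434, Mir136, Mir299a, Mir496a and the small nucleolar RNAs DQ267101, DQ267102 and AF357341 were not on the member list and were measured. Mir496a was counted here because members were matched by exact symbol, and the list gives Mir496. Whether these symbols name the same gene was not checked. All 9 were higher in Stra8 than in 129SV ES cells, from 0.95 (Mir136) to 1.66 (Mir337) with a median of 1.25, and all 9 were lower in Stra8 adult than in Stra8 ES cells, with a median of -1.03. In differentiated cells 7 of 9 were higher for ES (median 0.69) and 9 of 9 for adult cells (median 1.08), among which DQ267101 (1.52 ± 0.14), Mir136 (1.48 ± 0.15), Mir496a (1.30 ± 0.08), Mir434 (1.20 ± 0.22) and DQ267102 (1.08 ± 0.08) passed 2-fold.

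Of the 20 flanking genes, 10 on either side, more were called in the region's direction than over all genes, with small changes. In limma, between ES backgrounds 9 were higher and none lower (11 and 0 at an unadjusted p under 0.05) with a median of 0.17, against 21.3% and 20.0% of all genes. In the Stra8 adult minus ES comparison none was higher and 7 were lower (0 and 9 at an unadjusted p under 0.05) with a median of -0.13, against 13.2% and 15.1% of all genes. None passed 2-fold there. In differentiated adult cells Wars, a transfer RNA synthetase on the Dlk1 side, was 1.30 ± 0.06 higher, the 1 flanking gene past 2-fold in any of the 7 comparisons of groups. The 260 microRNA genes measured outside the region were the same kind of probe set. Between ES backgrounds 54 of them were higher and 20 lower (median 0.01), and in Stra8 adult against ES cells 20 and 17 (0.01). Upon differentiation of ES cells 107 were higher and 18 lower (0.21), and of adult cells 58 and 45 (-0.05). The shares of all genes upon differentiation were 27.9% and 27.3% for ES cells, and 27.5% and 32.2% for adult cells.

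Markers of other cells moved with these results. The fibroblast list (21 of 22 genes measured) had mean log2 signals of 10.6 to 10.7 in 129SV ES, 9.79 to 9.84 in 129SV adult, 9.41 to 9.46 in Stra8 ES, 10.2 in Stra8 adult, 8.64 to 8.73 in differentiated ES and 9.20 to 9.23 in differentiated adult cells. It ran opposite to the microRNAs in most comparisons of groups. Of its 21 genes 20 were lower in Stra8 than in 129SV ES cells (median -1.09). In Stra8 adult against Stra8 ES cells 21 were higher (0.75), and 19 were lower upon differentiation of ES cells (-1.44). In adult cells upon differentiation 6 were higher and 15 lower (-0.64), where 30 microRNA genes were higher and 1 lower. Between adult and ES cells of 129SV 1 was higher and 17 lower (-0.81), where 11 microRNA genes were higher and 1 lower. The list ran the same way as the microRNAs between the differentiated groups, with 15 higher and 1 lower in adult cells (0.34). Between adult backgrounds 10 were higher and 6 lower in Stra8 (0.17), where 12 microRNA genes were higher and 2 lower. Among its defining genes Dcn, a matrix proteoglycan, ranged from 10.12 to 12.70 and collagen Col1a1 from 10.97 to 13.21. Endoderm and extraembryonic genes (19 measured) were also lower in Stra8 than in 129SV ES cells for 12 genes (median -0.34) and higher upon differentiation for 17 (1.92) and 14 (2.75) genes of ES and adult cells. Macrophage and blood genes (8 measured) were lower in Stra8 than in 129SV ES cells for 6 (mean signals 6.81 to 6.84 against 7.28 to 7.35). Of 12 testis somatic genes 1 was higher and 7 lower between ES backgrounds (median -0.42), and of 14 neural genes 3 and 2 (median 0.08). In Stra8 adult against ES cells 14 of 19 endoderm and extraembryonic genes were higher (median 0.503). Of 20 pluripotency genes 9 were higher and 2 lower between ES backgrounds (median 0.135), and 1 and 13 in Stra8 adult against ES cells (-0.36). Upon differentiation 18 of the 20 were lower in ES cells, and 2 were higher and 17 lower in adult cells. Over all genes 21.3% were called higher and 20.0% lower between ES backgrounds, and 13.2% and 15.1% in Stra8 adult against ES cells. Upon differentiation the shares were 27.9% and 27.3% in ES cells and 27.5% and 32.2% in adult cells. Between adult and ES cells of 129SV they were 23.0% and 23.1%, between differentiated groups 19.4% and 12.8%, and between adult backgrounds 24.2% and 26.8%. The part of other cell types in the results on the region was not tested.

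**Figure D5:**
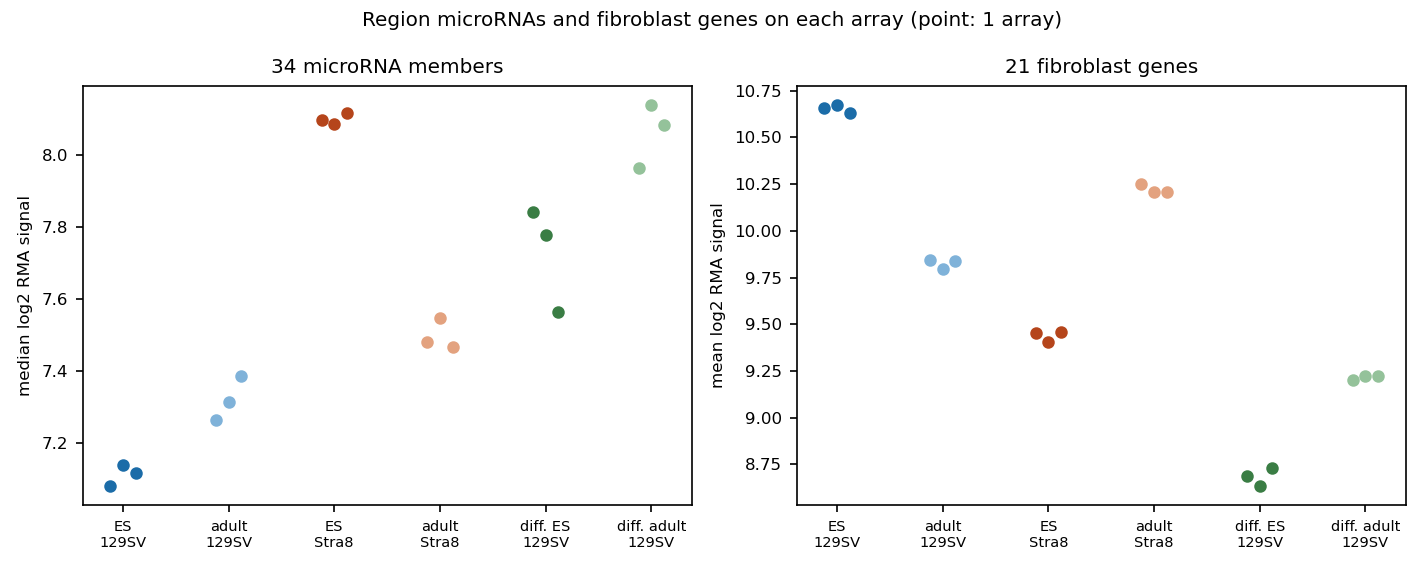
Median log2 signal of the 34 microRNA genes (left) and mean log2 signal of the 21 fibroblast genes (right) on each array, 1 point per array. The microRNA median is 8.09 to 8.12 in Stra8 ES cells and 7.08 to 7.14 in 129SV ES cells, while the fibroblast mean is 9.41 to 9.46 and 10.6 to 10.7.

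Imprinted genes elsewhere did not share 1 direction. Of 18 measured genes listed as paternally expressed outside the region, 9 were higher and 6 lower in Stra8 than in 129SV ES cells (median 0.26), with the growth factor gene Igf2 at -1.92 ± 0.05 and Peg3, a zinc-finger protein gene, at 1.53 ± 0.08. Of 19 listed as maternally expressed, 4 were higher and 9 lower (median -0.14). Over all genes 21.3% were higher and 20.0% lower. Upon differentiation of ES cells 11 and 6 genes of these lists were higher and 3 and 7 lower, against 27.9% and 27.3% of all genes. That list of paternally expressed genes holds Zim1, a neighbour of Peg3 read from the mother's copy, which rose by 4.48 ± 0.11 in ES cells, the largest change in that list there.

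Among 22 genes listed as imprint regulators, 8 were higher and 6 lower in Stra8 than in 129SV ES cells, against 21.3% and 20.0% of all genes. The list mixes genes that set, keep or remove DNA methylation with others, such as Afp, which is also on the endoderm list. The methyltransferase gene Dnmt3b (-1.55 ± 0.06) was lower, while Dppa3 (1.16 ± 0.11), which protects methylation in the early embryo, Smchd1 (1.15 ± 0.09) and the demethylating enzyme gene Tet1 (0.90 ± 0.07) were higher. In Stra8 adult against ES cells 6 were higher and 9 lower, against 13.2% and 15.1% of all genes. There Dnmt3b was at 1.44 ± 0.06 and Dppa3 at -0.65 ± 0.11. Dnmt3b fell upon differentiation of ES (-2.93 ± 0.06) and adult cells (-2.22 ± 0.06), as did Dnmt3l, its cofactor (-3.78 ± 0.07 and -2.86 ± 0.07).

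Genes that process microRNAs were listed because the probe sets are taken to read microRNA precursors. Of 14 measured, 9 were higher and 2 lower in Stra8 than in 129SV ES cells (median 0.26), none by 2-fold, with Lin28b (0.58 ± 0.07) and Dgcr8 (0.45 ± 0.05) higher and the editing enzyme Adar lower (-0.55 ± 0.06). Upon differentiation 4 were higher and 8 lower in ES cells, and 4 and 9 in adult cells. Lin28a, which blocks let-7 processing, fell in both (-1.38 ± 0.08 and -1.51 ± 0.08), and Adar had a change of -1.46 ± 0.06 in ES cells. Of 19 Notch pathway genes 4 were higher and 5 lower between ES backgrounds, and 6 were higher and 6 lower upon differentiation of ES cells, with the Notch effector Rbpj at -1.57 ± 0.05. Of 13 thyroid hormone genes 2 were higher and 2 lower between ES backgrounds. Over all genes 21.3% were called higher and 20.0% lower between ES backgrounds. The shares upon differentiation were 27.9% and 27.3% for ES cells, and 27.5% and 32.2% for adult cells.

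The genes whose signal followed Meg3 most closely over the 18 arrays, among 5463 genes outside the list whose group means ranged over at least 1, were Patj (Pearson r 0.962), Med12l (0.957), Pawr (0.956), Fabp3 (0.952) and Arhgap44 (0.941). For Dlk1 they were the transcription factor gene Ets2 (0.992), Cacfd1 (0.985), the receptor gene Cntfr (0.982), Sbno2 (0.979) and Tnfaip8 (0.977). These are descriptions over arrays that share 6 groups. Of the region, the r with Meg3 was above 0.9 for Mir127, Mir370, Mir485, Mir495, Mir369, Mir134, Mir341 and Mir543, and 0.02 for Mir666.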

How the data were processed

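RNA of 18 samples was hybridised to 1-colour arrays, 3 per group. The authors deposited log2 signals per probe set. The submitters' processing notes name RMA and Affymetrix Expression Console, with versions not given in the sources used here. RMA corrects background, normalises by quantiles and summarises probes, so differences of overall RNA amount are removed, and array medians lay between 7.22 and 7.38. Depth does not apply to arrays, and their number limits the precision. Of 35556 probe sets, 21789 had 1 symbol in the platform annotation, 1621 had several and 12146 none. Those with 1 symbol were kept, with the highest mean over the arrays for genes with several, which gave 19938 genes. Of these probe sets 21698 matched a RefSeq gene ID.

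From the deposited log2 values, limma 3.58.1 in R 4.3.3 fitted 1 mean per group to all 18 arrays (lmFit and eBayes, 12 residual and 3.78 prior degrees of freedom), with 7 differences of groups and 2 differences of differences. P-values were adjusted by Benjamini-Hochberg over all genes. The script was tested on simulated data. Region members and gene lists were chosen with earlier results of these data known. The 3 paternal and 2 long maternal genes, and microRNA genes past 2-fold in a comparison of groups, are given on every array. Flanking genes and listed genes are named by size of change. Alternatives were median centring, quantile normalisation, a filter on dim genes, array weights, fits on only the arrays compared, the replicate number as a block, and each array left out. The labels number replicates without saying what a number marks. Same-numbered arrays deviated together only between the differentiated groups (correlations 0.153, 0.144 and 0.442). The reported fit used no pairing in any comparison, there included. The block on replicate number, over all groups, was run only as an alternative. With it the comparison of the differentiated groups had 22 region genes called, the same total as without.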

Additional observations from a re-analysis of the deposited data

Results flagged for a closer look

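The adult minus ES change differed between Stra8 and 129SV cells, by the test of the difference itself in limma and by at least 2-fold, for 25 of the 39 genes. The difference was -2.40 for Mir495, -2.28 for Mir379, -2.17 for Mir541, -1.98 for Mir377, -1.92 for Mir376c and -1.85 for Mir376a. It was -1.65 for Mir154, -1.57 for Mir665 and for Mir380 (-1.57), -1.55 for Mir300, -1.43 for Mir539, -1.41 for Mir543 and -1.39 for Mir376b. It was -1.33 for Mir369, -1.31 for Mir668, -1.29 for Meg3 and for Mir329 (-1.29), -1.28 for Mir381 and -1.20 for Mir679. It was -1.14 for Mir341 and for Rtl1 (-1.14), -1.13 for Mir673, -1.08 for Mir127 and for Mir487b (-1.08), and -1.02 for Mir382. All share the Stra8 ES arrays. The response to differentiation differed between adult and ES cells by the same test for Rian (1.37) and Mir382 (1.17).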

How the results depend on the processing

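Under the alternatives run, each total of region genes called, both directions together, stayed within 1.5 times its reported value. Leaving out 1 array at a time gave 13 to 15 genes for adult against ES cells of 129SV, 34 to 35 for Stra8, 16 to 21 between differentiated groups, 31 to 37 and 32 to 35 for differentiation of ES and adult cells, 37 to 37 and 14 to 19 between backgrounds of ES and adult cells, 35 to 37 for the difference between backgrounds, and 13 to 19 for the difference in response. With the replicate block the counts, in that order, were 18, 35, 22, 33, 36, 37, 18, 38 and 20, none of them over 1.5 times away. Counts in 1 direction moved more. Smaller responses in adult cells fell from 7 to 3 without replicate 1 of the 129SV ES cells, and to 4 without replicate 2 of the 129SV adult cells, without replicate 2 of the differentiated adult cells, or on only the arrays compared. Lower genes between adult backgrounds rose from 5 to 8 with array weights. Lower genes upon differentiation of adult cells fell from 2 to 1 with the dim filter, on only the arrays compared and without any of 3 arrays, and those upon differentiation of ES cells rose from 0 to 1 with centring, quantile normalisation, array weights and without either of 2 arrays. Higher genes in Stra8 adult against ES cells rose from 0 to 1, and lower ones between differentiated groups from 1 to 2, with array weights, and the former also on only the arrays compared. Of 4056 recomputed values of single genes, 3796 kept direction and side of the threshold, 136 lost and 79 gained a call, 45 moved without one, and none reversed a called value. The filter on dim genes kept those whose highest group mean reached a log2 signal of 7.611, which left 29 of the 39 genes. Dio3 was among those it removed. The estimation of array weights stopped before it reached its tolerance. With no detection calls, no probe set has a known floor. The cause of the lost calls was not tested.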
